A study of Mus musculus with 6 samples.

Results

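Basement membranes are thin sheets of matrix that lie against muscle fibres, blood vessels, nerves and fat cells. A network of type IV collagen and a network of laminin are joined in them by nidogens and by the heparan sulphate proteoglycans perlecan and agrin, and cells hold on to the laminin network through integrins and dystroglycan. In skeletal muscle the sheet around each fibre is built partly by the interstitial fibroblast-like cells next to it. The genes described here were given as a list of 31: 6 type IV collagen chains, the collagens XV and XVIII, 10 laminin chains, 2 nidogens, perlecan, agrin, nephronectin, the Fraser complex genes Frem1, Frem2 and Fras1, peroxidasin (Pxdn), Tinagl1, 2 netrins and dystroglycan. All 31 were found by symbol among the 33276 genes of the count table, and all 31 passed the filter on low counts that left 20248 genes for testing.

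The libraries came from fibroadipogenic progenitors (FAPs), mesenchymal cells of the muscle interstitium that can form fibroblasts and adipocytes. RNA-seq reads per gene were counted in 3 libraries of FAPs from peripheral blood, called circulating here, and in 3 libraries of FAPs from muscle. Every library carried the label MCAO, for middle cerebral artery occlusion, a model of ischaemic stroke, under the heading of strain. The mouse strain, age, sex, time after occlusion and the markers used for sorting are not given in the sources used here, and no library from mice without occlusion was analysed here. Nothing in the labels says that the samples of a group came from separate mice, so the p-values rest on the spread among these libraries alone, and that spread may be technical.

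Circulating libraries held 3106011 to 7880709 counts besides 18S ribosomal RNA, and muscle libraries 12663430 to 15864333. Counts of 18S, summed over its 2 symbols, were 42.9%, 43.8% and 60.1% of all counts in circulating replicates 1, 2 and 3. In muscle replicates 1, 2 and 3 they were 32.3%, 27.8% and 32.3%. The 10 FAP markers listed, among them Dcn, Gsn and Col1a1, summed to 27771 to 29607 counts per 1000000 counts (CPM) in circulating libraries. In muscle libraries they summed to 58287 to 69879 CPM. Both groups thus held transcripts of these markers, at a lower sum in each circulating library. Gsn alone had a mean of 14589 CPM in circulating and 33310.5 CPM in muscle libraries. Of the 10 markers, 9 were lower and 1, Pi16, was higher in the circulating mean. Leukocyte markers, 16 genes with none at 0 in all libraries, summed to 118 to 199 CPM in circulating and 21.2 to 23.7 CPM in muscle libraries. Endothelial markers (16 genes) summed to 128 to 163 and 151 to 215 CPM, Schwann and perineurial markers (14 genes) to 375 to 453 and 587 to 757 CPM, pericyte and smooth muscle markers (13 genes) to 59.1 to 95.5 and 122 to 243 CPM. Satellite cell and muscle fibre markers (14 genes) summed to 62.1 to 175 and 110.1 to 189 CPM, platelet and red cell markers (11 genes) to 151 to 334 and 106 to 399 CPM, and adipocyte markers (8 genes) to 5.38 to 9.85 and 4.54 to 4.72 CPM. Leukocyte sums were thus higher, and FAP, pericyte and Schwann sums lower, in each circulating library. The part of these differences in those given here was not tested. In bulk libraries, fewer cells of a type and less RNA per cell cannot be told apart.

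The sequences around the starts of the main type IV collagen pair and of the collagen XV and XVIII pair are shown first, because Col4a1 and Col4a2 lie head to head while Col15a1 and its relative Col18a1 do not share a locus. The RefSeq table of promoters on GRCm38.p6, an older build than the GRCm39 named for the counts, held a start for 22 of the 31 genes, with 29 windows in all. On chromosome 8 the annotated starts of Col4a1, on the minus strand, and Col4a2, on the plus strand, overlap by 22 bases, set in capitals in the stretch of 30 bases at chr8:11312801-11312830, plus strand:
Col4a1 and Col4a2: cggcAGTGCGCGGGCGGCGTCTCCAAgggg
The 250 bases before the start of Col15a1, at chr4:47207762-47208011 on the plus strand, and before the upstream start of Col18a1, at chr10:77166531-77166780 on the minus strand, are given 5′ to 3′, with matches to 4 motifs in capitals:
Col15a1: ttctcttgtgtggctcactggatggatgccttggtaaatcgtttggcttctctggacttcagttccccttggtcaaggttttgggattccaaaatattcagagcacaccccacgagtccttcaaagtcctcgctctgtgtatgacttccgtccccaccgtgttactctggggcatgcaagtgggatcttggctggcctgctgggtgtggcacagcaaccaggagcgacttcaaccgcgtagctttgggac
Col18a1: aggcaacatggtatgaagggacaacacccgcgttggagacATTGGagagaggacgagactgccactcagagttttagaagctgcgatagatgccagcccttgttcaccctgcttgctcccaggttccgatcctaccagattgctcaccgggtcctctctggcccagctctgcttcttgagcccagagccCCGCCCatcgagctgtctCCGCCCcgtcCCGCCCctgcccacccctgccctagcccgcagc
The motifs, searched on both strands, were the GC box GGGCGG, the CCAAT box CCAAT, the TATA box TATAAA and the AP-1 site TGANTCA. The Col18a1 window held 3 GC boxes and 1 CCAAT box, and the Col15a1 window held no match to any of these letters. Of 32851 mouse windows of this length, 32.7% held a GC box, 33.8% a CCAAT box, 12.4% a TATA box and 6.75% an AP-1 site. Among the 29 windows of the listed genes the numbers were 16, 10, 0 and 1. A match describes the letters of the window and is no evidence of binding.

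**Figure D1:**
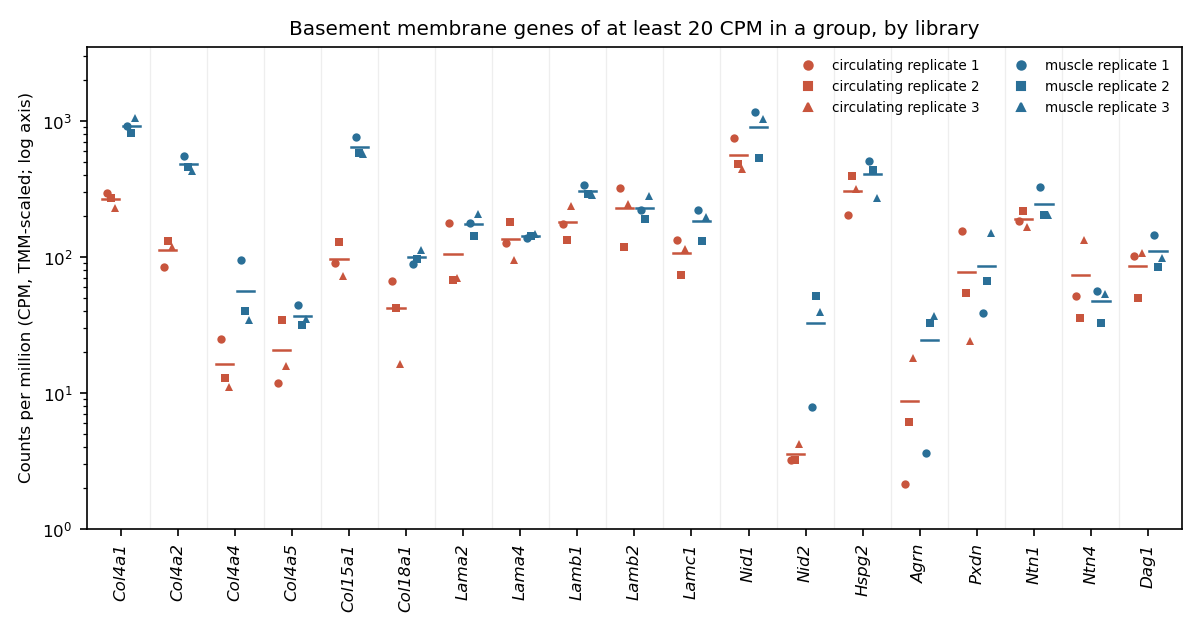
Level of each basement membrane gene with a mean of at least 20 CPM in a group, in CPM on a log axis, for the 3 circulating (orange) and 3 muscle (blue) libraries, with bars at the group means. The groups stand apart for Col4a1, Col4a2, Col4a4, Col15a1, Col18a1, Lamb1 and Nid2, each lower in circulating libraries, and overlap for the other 12 genes. Col4a4, Nid2 and Agrn reached 20 CPM in the muscle mean only, so they could enter only as lower genes. Of all genes tested, 11.4% stood apart in the lower direction, and of genes of at least 20 CPM over all libraries 28.8%.

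Under TMM scaling, 1 of the 31 genes, Col15a1, passed the threshold of adjusted p under 0.05 in edgeR, in the lower direction, and none passed in the higher direction. Over all 20248 genes tested, 0.104% passed lower and 0.00494% higher. At an unadjusted p under 0.05, 5 of the 31 were lower (16.1%) and 1 higher, against 9.64% and 9.71% of all genes tested. The 5 lower genes were Col4a1, Col4a2, Col4a4, Col15a1 and Nid2, and the higher one was Npnt, named here after their values were seen. In 7 of the 31 genes (22.6%) every circulating library lay below every muscle library, against 11.4% of all genes tested, and in 5 every circulating library lay above, against 16.2%. Of 4736 genes with a mean of at least 20 CPM over all libraries, 21.8% were lower and 1.25% higher at an unadjusted p under 0.05. All circulating libraries lay below all muscle libraries in 28.8% of these abundant genes and above in 1.67%. Of the 19 listed genes with at least 20 CPM in a group, 26.3% were lower at an unadjusted p under 0.05 in edgeR. In 36.8% of these 19 all circulating libraries lay below all muscle libraries. Their filter differs, since Col4a4, Nid2 and Agrn met it through the muscle mean only.

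The median log2 fold change, circulating minus muscle, was -0.35 over the 31 genes, 0.15 over all genes tested and -0.65 over the genes of at least 20 CPM. Of the 31 genes 21 had negative values, against 45.5% of all genes tested and 78.3% of the genes of at least 20 CPM. Scaling moved these values together: the median of all genes shifted by 0.74 with scaling on abundant genes (TMM factors taken from genes of at least 20 CPM), by 0.67 with upper quartile scaling and by 0.59 with library size without 18S. With those scalings the median of the 31 genes turned positive, at 0.41, 0.32 and 0.27. Directions in what follows are those under TMM, and the genes whose sign turned under at least 1 of the 5 other scalings were Col4a5, Lama4, Lamb1, Lamb2, Nid1, Hspg2, Pxdn, Ntn1 and Dag1.

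**Figure D2:**
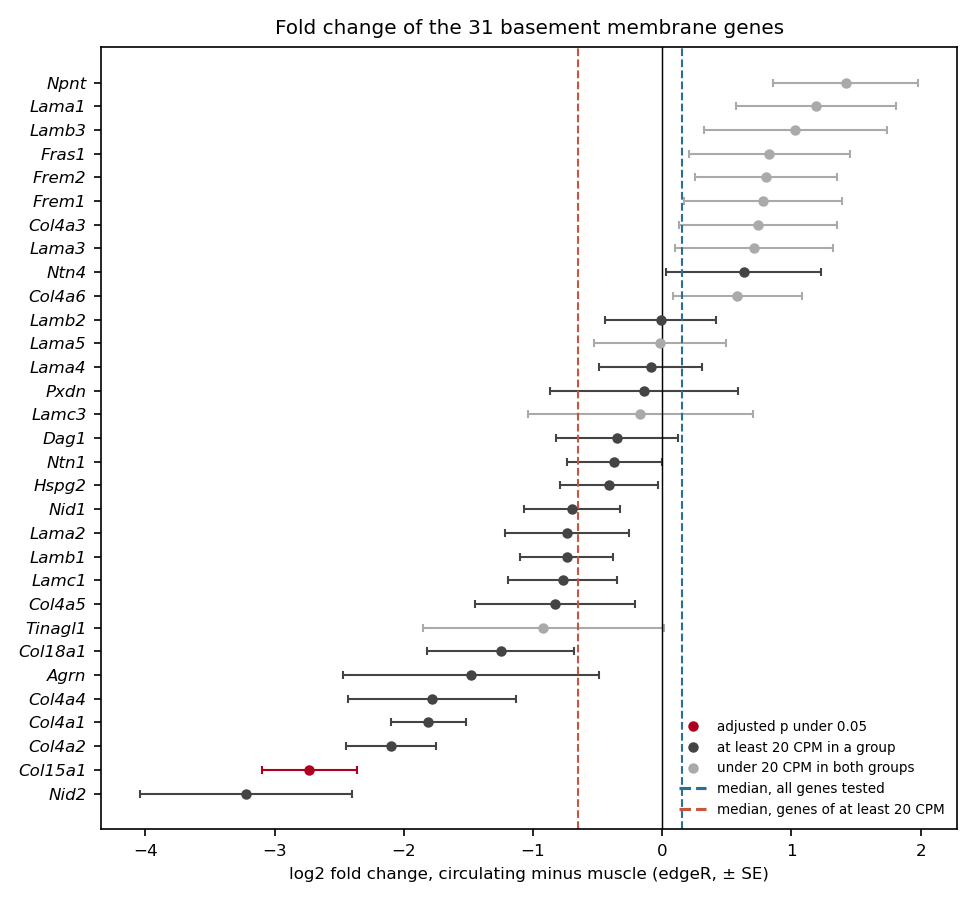
Log2 fold change (circulating minus muscle, edgeR, ± SE, n = 3 per group) of the 31 basement membrane genes, in order of size. Col15a1, in red, is the gene past the threshold at -2.73, the genes in grey are under 20 CPM in both groups, and the dashed lines mark the medians of all genes tested (0.15) and of genes of at least 20 CPM (-0.65).

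Type IV collagen assembles from 3 chains, and the form found in nearly all basement membranes holds the products of Col4a1 and Col4a2. Col4a1 was at 293, 271 and 230.5 CPM in circulating replicates 1, 2 and 3 and at 911, 819.7 and 1045 CPM in muscle replicates 1, 2 and 3. The groups lay far apart without overlap. The log2 fold change was -1.81 ± 0.29 (SE), and the gene missed the threshold in edgeR (adjusted p = 0.0606). Col4a2 was at 84.5, 132 and 119 CPM in circulating and at 556, 459 and 429 CPM in muscle libraries, again without overlap. Its log2 fold change was -2.10 ± 0.35 (adjusted p = 0.0616 in edgeR). Both passed in DESeq2 (adjusted p = 0.00111 for Col4a1 and 0.000292 for Col4a2), a test that called 8.73% of the 15266 genes it adjusted lower and 1.13% higher. Col4a1 also passed in edgeR with RLE size factors (adjusted p = 0.0388), with TMMwsp (0.0433), with no filter (0.0189) and without circulating replicate 1 (0.0360), and in limma voom (0.0366). Col4a2 passed in edgeR with RLE size factors (adjusted p = 0.0471) and with no filter (0.0217), and in limma voom (0.0397). Across the settings, the adjusted p ran from 0.00111 to 0.259 for Col4a1 and, for Col4a2, from 0.000292 to 0.225, and neither sign turned.

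The ratio of the paired chains within a library does not depend on scaling between libraries. Per kilobase of exon, Col4a1 exceeded Col4a2 by 3.07, 1.81 and 1.71 times in circulating and by 1.45, 1.58 and 2.16 times in muscle libraries. The ranges overlapped, and the mean log2 ratios of 1.08 ± 0.46 and 0.77 ± 0.30 (SD, n = 3) were not separated (two-sided exact permutation p = 0.500; adjusted p = 0.571 over 8 ratios). Together these chains made up most type IV collagen reads per kilobase in every library, with Col4a1 at 60.5% ± 6.76 in circulating and 59.5% ± 5.40 in muscle and Col4a2 at 28.8% ± 5.82 and 34.9% ± 4.05. The starts of the paired genes overlap, as the stretch from chromosome 8 shows, and they share with each other only those 22 exon bases, on opposite strands, in the GENCODE M21 annotation.

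The other type IV chains form the networks of specialised membranes such as those of the kidney glomerulus. Col4a4 was at 25.1, 12.9 and 11.1 CPM in circulating and at 94.5, 39.8 and 34.2 CPM in muscle libraries, so the groups did not overlap but muscle replicate 1 stood well above the other muscle libraries. The log2 fold change was -1.78 ± 0.65 (adjusted p = 0.206 in edgeR and 0.0293 in DESeq2). Col4a3, its partner in the specialised network, lay between 6.06 and 14.3 CPM in all libraries, higher in each circulating library (0.74 ± 0.61, adjusted p = 0.489 in edgeR). Col4a5 was at 11.9, 34.2 and 15.8 CPM against 44.0, 31.5 and 34.7 CPM and overlapped between the groups through circulating replicate 2 (-0.83 ± 0.62, adjusted p = 0.456 in edgeR). Col4a6, which starts 1342 bases from Col4a5 on the opposite strand of the X chromosome, was at 3.11 ± 0.862 and 2.06 ± 0.199 CPM.

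Collagens XV and XVIII are multiplexins, collagens with interrupted triple helices that sit where basement membranes meet the interstitial matrix, and both end in a domain that can be released as an inhibitor of vessel growth. Col15a1 was at 89.5, 129 and 71.8 CPM in circulating and at 767, 582 and 576 CPM in muscle libraries, so the highest circulating library was far below the lowest muscle library. It fell by 2.73 ± 0.37 on the log2 scale (adjusted p = 0.0341 in edgeR and 2.62e-06 in DESeq2). The direction held in every setting tried, from -1.94 to -3.08. The call was lost with upper quartile scaling (adjusted p = 0.0854 in edgeR), library size without 18S (0.0801), scaling on abundant genes (0.0801), the replicate block (0.0801) and without any 1 library other than circulating replicate 1 (adjusted p = 0.0775 to 0.202).

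Col18a1 was at 66.8, 42.1 and 16.3 CPM in circulating and at 88.2, 96.8 and 113 CPM in muscle libraries, without overlap but with a wide circulating range. The log2 fold change was -1.25 ± 0.57 and did not pass in edgeR (adjusted p = 0.261) or DESeq2 (adjusted p = 0.120). Within a library, Col15a1 exceeded Col18a1 per kilobase of exon by 1.48, 3.40 and 4.89 times in circulating and by 9.62, 6.65 and 5.63 times in muscle libraries. Every circulating ratio lay below every muscle ratio, and the mean log2 ratio was 1.54 ± 0.88 against 2.83 ± 0.40. The exact permutation test gave p = 0.1, the smallest that 3 libraries against 3 allow (adjusted p = 0.267 over 8 ratios), so these data cannot pass 0.05 on that difference.

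Laminins are trimers of an alpha, a beta and a gamma chain, and the alpha chain sets which receptors a trimer binds. Of 10 laminin genes, 7 had negative and 3 positive log2 fold changes, and none passed the threshold in edgeR or DESeq2. Lama2, the alpha chain of the muscle fibre membrane whose loss causes a congenital muscular dystrophy, was at 179, 67.3 and 70.1 CPM in circulating and at 179, 142 and 207 CPM in muscle libraries. Circulating replicate 1 lay within the muscle range, and the other circulating libraries lay below it (-0.74 ± 0.48, adjusted p = 0.400 in edgeR). Lama4, the alpha chain of vessel and fat cell membranes, was at 126, 182 and 95.2 CPM against 138, 143 and 147 CPM. The narrow muscle range lay inside the circulating range (-0.09 ± 0.40, adjusted p = 0.911).

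Per kilobase, Lama2 and Lama4 together supplied most laminin alpha reads in every library. Lama2 held 47.5%, 19.7% and 30.2% of alpha chain reads per kilobase in circulating and 47.6%, 39.6% and 49.0% in muscle libraries, and Lama4 held 45.2%, 72.0% and 55.6% against 49.7%, 54.1% and 47.1%. Circulating replicates 2 and 3 leaned to Lama4, and circulating replicate 1 had the balance of the muscle libraries. The log2 ratio of Lama2 to Lama4 was -0.89 ± 0.97 in circulating and -0.15 ± 0.27 in muscle libraries (exact permutation p = 0.400; adjusted p = 0.533 over 8 ratios). Lama1, Lama3 and Lama5, alpha chains best known from embryonic and epithelial membranes, stayed at or below 10.5 CPM in every library.

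Lamb1, the most widely used beta chain, was at 174, 134 and 238 CPM in circulating and at 338, 292 and 283 CPM in muscle libraries, without overlap (-0.74 ± 0.36, adjusted p = 0.285 in edgeR). Lamb2, the beta chain concentrated at neuromuscular junctions and in vessels, was at 323, 118 and 247 CPM against 222, 189 and 281 CPM. Its circulating range enclosed the muscle range (-0.01 ± 0.43, adjusted p = 0.994). Within a library the ratio of Lamb1 to Lamb2 per kilobase was 0.329, 0.697 and 0.592 in circulating and 0.934, 0.948 and 0.618 in muscle libraries. Muscle replicate 3 lay among the circulating values (exact permutation p = 0.200; adjusted p = 0.320 over 8 ratios). Lamc1, the common gamma chain, was at 134, 73.2 and 114 CPM against 223, 129.9 and 195 CPM and overlapped by the narrow margin between circulating replicate 1 and muscle replicate 2 (-0.77 ± 0.42, adjusted p = 0.327 in edgeR).

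Set against Col4a1 inside each library, Lamc1 stood relatively higher in these circulating libraries. Both genes had negative log2 fold changes under TMM, the larger one for Col4a1. Lamc1 reached 0.414, 0.244 and 0.444 of the Col4a1 level per kilobase in circulating and 0.221, 0.143 and 0.169 in muscle libraries. The groups did not overlap, with mean log2 ratios of -1.49 ± 0.47 and -2.52 ± 0.32, and the exact permutation test gave p = 0.1, the smallest possible (adjusted p = 0.267 over 8 ratios). Col4a1 stood at 0.173, 0.165 and 0.114 of Col1a1, a chain of fibrillar collagen, in circulating and at 0.186, 0.179 and 0.232 in muscle libraries. Those groups also did not overlap, by a narrow margin, with a difference of mean log2 ratio of -0.42 (exact permutation p = 0.1; adjusted p = 0.267).

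**Figure D3:**
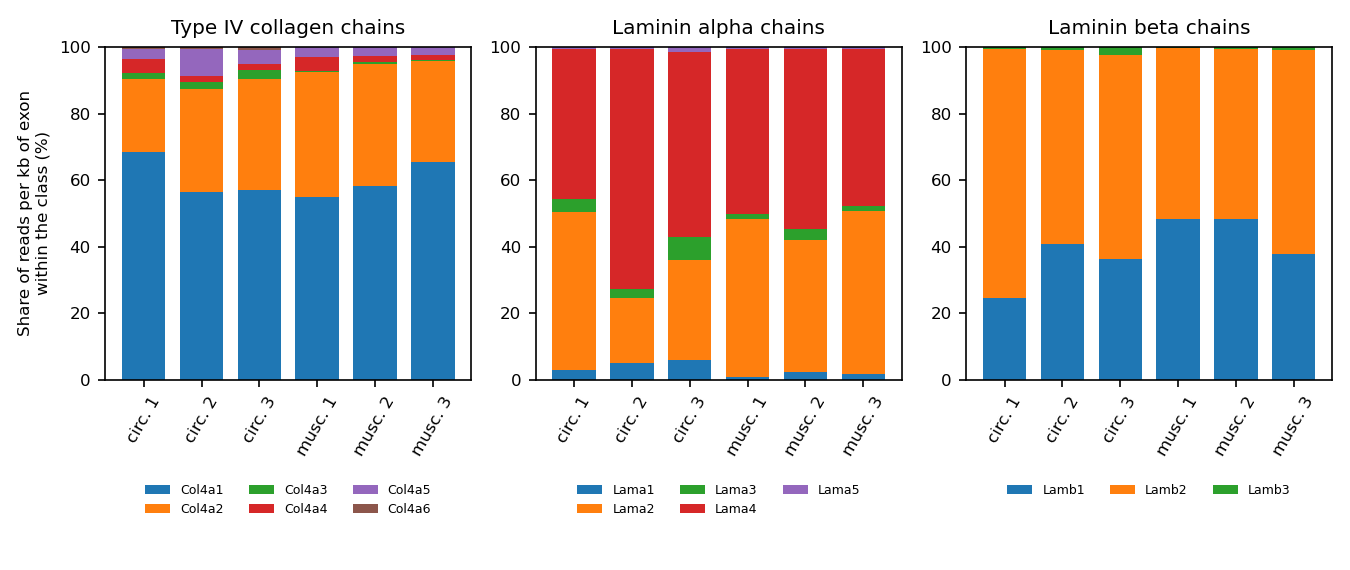
Share of each chain in the reads per kilobase of exon of its class (percent), for the type IV collagen, laminin alpha and laminin beta chains, in each of the 3 circulating and 3 muscle libraries. Col4a1 and Col4a2 fill most of the type IV bars in all libraries, and Lama4 takes 72.0% of the alpha bar in circulating replicate 2 against 47.1% to 54.1% in muscle.

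Nidogens bind laminin and type IV collagen and so link the networks. Nid1 was at 754, 484 and 444 CPM in circulating and at 1159.9, 533 and 1034 CPM in muscle libraries, where muscle replicate 2 fell among the circulating values (-0.70 ± 0.37, adjusted p = 0.312 in edgeR). Nid2 was at 3.21, 3.19 and 4.17 CPM in circulating and at 7.83, 51.6 and 39.2 CPM in muscle libraries. The groups did not overlap, and muscle replicate 1 lay near the circulating libraries and far from the other muscle libraries. The log2 fold change of Nid2 was -3.22 ± 0.82 (adjusted p = 0.143 in edgeR and 0.000295 in DESeq2). In the GENCODE M21 annotation 437 exon bases of Nid2, or 8.45% of its length, lie opposite exons of Rtraf, and the strand setting of the counting is not given in the sources used here. Per kilobase, Nid1 exceeded Nid2 by 175, 113 and 79.2 times in circulating and by 110.4, 7.69 and 19.7 times in muscle libraries (exact permutation p = 0.200; adjusted p = 0.320 over 8 ratios).

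Perlecan (Hspg2) and agrin (Agrn) carry heparan sulphate chains that hold growth factors, and agrin also clusters acetylcholine receptors at the neuromuscular junction. Hspg2 was at 203, 396 and 315 CPM in circulating and at 506, 437 and 273 CPM in muscle libraries, with overlap (-0.41 ± 0.38, adjusted p = 0.543 in edgeR). Agrn was at 2.12, 6.12 and 17.9 CPM against 3.58, 32.8 and 36.6 CPM, so muscle replicate 1 was again near the circulating level (-1.48 ± 0.99, adjusted p = 0.411 in edgeR). With 1 library left out at a time, the value ran from -2.67 (without circulating replicate 3) to -1.08 (without circulating replicate 1). Agrn had 29, 46 and 163 reads in circulating libraries and 60 in muscle replicate 1. In circulating replicates 1 and 2 and muscle replicate 1 these were near the level of stray reads given below. Per kilobase, Hspg2 exceeded Agrn by 62.3, 42.0 and 11.4 times in circulating and by 91.6, 8.65 and 4.84 times in muscle libraries, with overlap (exact permutation p = 0.600; adjusted p = 0.600 over 8 ratios). The summed pericyte and smooth muscle markers were at 122, 145 and 243 CPM and the summed endothelial markers at 179, 151 and 215 CPM in muscle replicates 1, 2 and 3. Single endothelial markers differed in direction across these libraries. Tek (86.4, 34.5 and 49.4 CPM) and Eng (57.6, 29.9 and 54.8 CPM) were highest in muscle replicate 1. Kdr (4.06, 12.1 and 54.7 CPM) and Pecam1 were lowest there, as were the pericyte marker Rgs5 (13.1, 43.2 and 68.4 CPM), Nid2 and Agrn. The part of pericytes or endothelial cells in the levels of Nid2 and Agrn was not tested.

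Peroxidasin (Pxdn) forms the sulfilimine bonds that crosslink type IV collagen. It was at 154, 54.2 and 24.2 CPM in circulating and at 38.4, 66.2 and 151 CPM in muscle libraries, nearly the same range in both groups (-0.14 ± 0.73, adjusted p = 0.921 in edgeR). Tinagl1, a basement membrane protein related to cathepsins, had 4 to 63 reads in any library and at most 3.20 CPM.

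Netrins resemble the short arms of laminins. Netrin 1 guides axons and vessels, and netrin 4 inserts into laminin networks. Ntn1 was at 185, 216 and 165 CPM in circulating and at 326, 202 and 204 CPM in muscle libraries (-0.37 ± 0.37, adjusted p = 0.572 in edgeR). Ntn4 was at 51.2, 35.4 and 134 CPM against 56.5, 32.9 and 53.4 CPM (0.63 ± 0.60, adjusted p = 0.559 in edgeR). That value rested on circulating replicate 3, without which it was -0.25. Dag1, the dystroglycan receptor that ties laminin to the cytoskeleton, was at 101, 49.9 and 107 CPM against 146, 85.0 and 98.9 CPM, with overlap (-0.35 ± 0.47, adjusted p = 0.679 in edgeR).

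Nephronectin (Npnt), a ligand of the integrin alpha 8 beta 1, and the Fraser complex genes Frem1, Frem2 and Fras1, which anchor epithelia in the embryo, all had positive values. Npnt was at 3.28, 2.0 and 3.95 CPM in circulating and at 0.597, 1.27 and 1.56 CPM in muscle libraries (1.42 ± 0.56, adjusted p = 0.219 in edgeR). Frem1 and Fras1 also had every circulating library above every muscle library, and Frem2 overlapped. These genes belong to the 12 that stayed between 0.196 and 15.6 CPM, on 4 to 252 reads a library.

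For such low genes the level of stray reads matters. Sensory receptor genes, 389 vomeronasal, taste and trace amine receptors with a known exon length, were taken as silent outside sensory tissue. Their silence in these cells was not checked. They had a median of 0.824, 1.27 and 0.913 reads per kilobase (in CPM without 18S) in circulating and 0.337, 0.440 and 0.277 in muscle libraries. This background was 2.85 times higher in the circulating mean. Divided by it, the 12 low genes lay between 0.141 and 7.42 times background in any library, and 11 of them never passed 4 times; the other was Lamc3 in muscle replicate 2. Npnt was at 1.38, 0.755 and 1.85 times background in circulating and at 0.449, 0.892 and 1.45 times in muscle libraries, and these ranges overlapped. The positive fold changes of the low genes stood beside a background that was higher in the same libraries, and its part in them was not tested.

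On the same scale 16 of the 31 genes had every circulating library below every muscle library, with none above. The same count was not made over all genes tested, so the 16 cannot be read as particular to these genes. This scale divides by a background that itself differed between the groups, so it lowers every gene in circulating libraries. Nid2 was at 1.31, 1.17 and 1.90 times background in circulating libraries, so reads of this gene were not clearly above stray reads there, and at 5.72, 35.2 and 35.2 times in muscle. Agrn was at 0.481, 1.25 and 4.54 times background in circulating libraries and at 1.46, 12.5 and 18.3 times in muscle. Its reads were not clearly above stray reads in circulating replicates 1 and 2 or in muscle replicate 1. Col15a1 was still at 29.8, 38.7 and 26.7 times background in circulating libraries, against 457, 324 and 421 times in muscle.

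**Figure D4:**
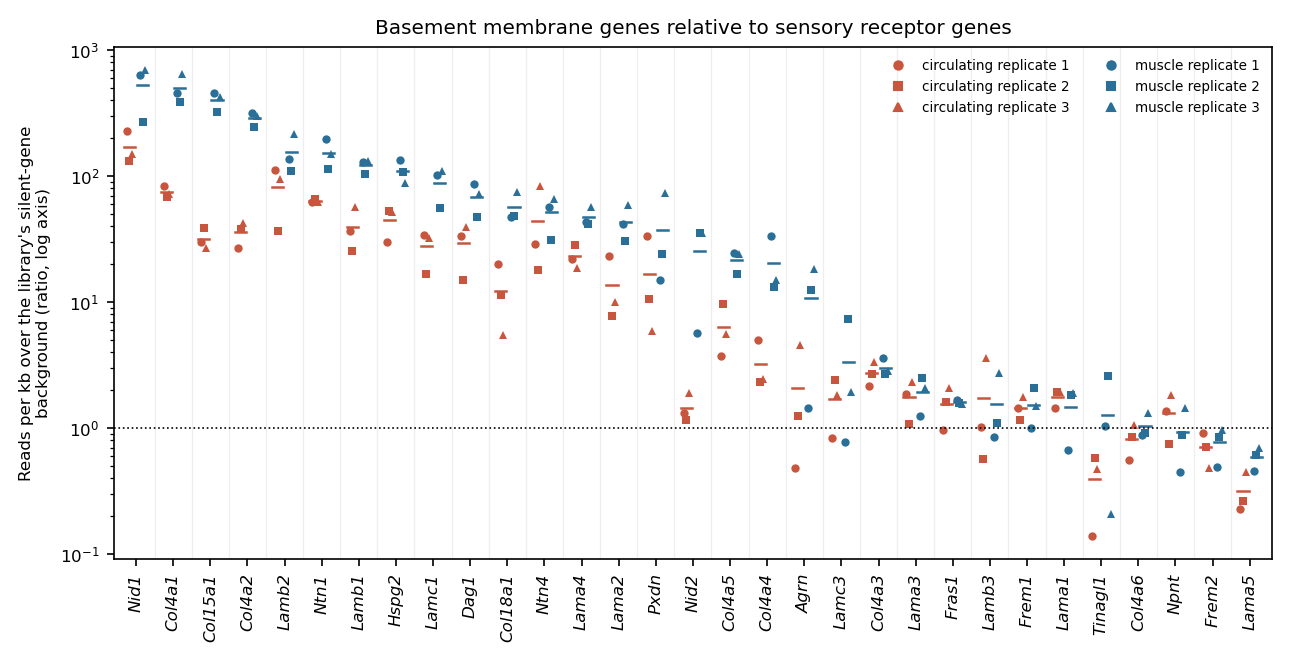
Reads per kilobase of each of the 31 basement membrane genes divided by the silent-gene background of the same library (ratio, log axis), for 3 circulating (orange) and 3 muscle (blue) libraries, with bars at the means and a dotted line at 1. From Nid1 to Pxdn every library is at 5.45 times background or more. In circulating libraries Nid2 is at 1.17 to 1.90, Col4a5 at 3.74 to 9.68, Col4a4 at 2.31 to 4.99 and Agrn at 0.481 to 4.54. The genes at the right lie near 1 in both groups.

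Levels between genes were compared per kilobase of exon, as CPM per kilobase. In muscle libraries the order began with Nid1 at 131 ± 47.8, Col4a1 at 124 ± 15.2 and Col15a1 at 101 ± 17.1. The ranges of mean ± SD of these neighbours overlap, and Col4a2 followed at 72.8 ± 10. Ntn1 (38.9 ± 11.3), Lamb2 (37.9 ± 7.70), Lamb1 (30.7 ± 2.95) and Hspg2 (28.3 ± 8.37) came next and were not separated beyond their spread. In circulating libraries Nid1 again led at 80.7 ± 24.3, ahead of Lamb2 at 37.7 ± 17.1, Col4a1 at 35.4 ± 4.22 and Ntn1 at 30.1 ± 4.05, which overlapped. Col4a2 stood at rank 8 with 16.9 ± 3.74 and Col15a1 at rank 9 with 15.3 ± 4.63, compared with ranks 4 and 3 in muscle.

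**Figure D5:**
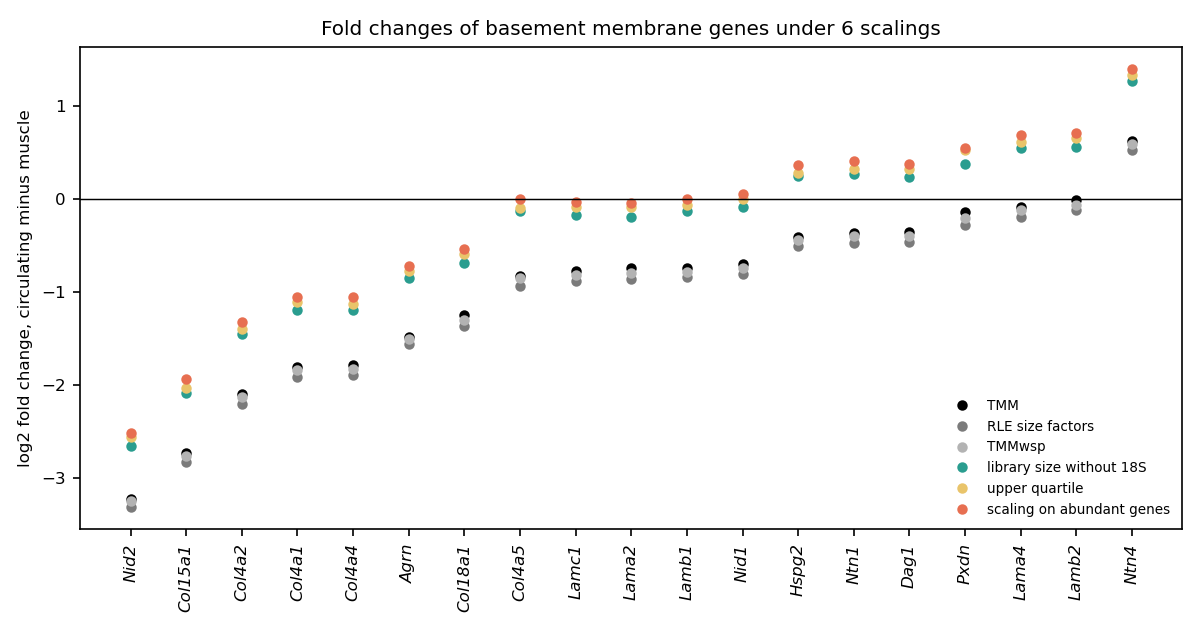
Log2 fold change, circulating minus muscle, of the 19 basement membrane genes of at least 20 CPM in a group under TMM and 5 other scalings. Nid2, Col15a1, Col4a2, Col4a1, Col4a4, Agrn and Col18a1 are well below 0 under all 6, Lama2 and Lamc1 reach -0.04 and -0.03, Ntn4 is above 0 under all 6, and the other 9 genes cross or touch 0. Nid2, Col4a4 and Agrn are shown because of their muscle mean only.

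Genes that work with the basement membrane were read from 4 further lists. Their counts are set beside the shares of all genes tested: 9.64% lower and 9.71% higher at an unadjusted p under 0.05 (21.8% and 1.25% of genes of at least 20 CPM), and 8.73% lower and 1.13% higher in DESeq2. Of 24 tested genes for other basement membrane proteins, 1 fell and none rose in edgeR (7 lower and 0 higher in DESeq2; 9 lower and 1 higher at an unadjusted p under 0.05 in edgeR), with a median log2 fold change of -0.54. The gene that fell was Smoc2, a calcium-binding matricellular protein of basement membranes, at 746, 425 and 446 CPM in circulating and 2459, 2407 and 2744 CPM in muscle libraries (-2.23 ± 0.29, adjusted p = 0.0341 in edgeR). Smoc2 lost the call with upper quartile scaling (adjusted p = 0.0787 in edgeR), scaling on abundant genes (0.0586), the replicate block (0.0801) and without any 1 library other than circulating replicate 1 (0.0775 to 0.202). Of 34 receptor genes none passed in edgeR (8 lower in DESeq2; 8 lower and 0 higher at an unadjusted p under 0.05 in edgeR), with a median of -0.37. The most abundant were the heparan sulphate proteoglycan Sdc2 (-0.16 ± 0.33), the integrin beta chain Itgb1 (-0.20 ± 0.41) and utrophin, Utrn (-0.38 ± 0.49), all with overlap between the groups.

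Of 34 tested genes for folding, modification and export of these proteins none passed in edgeR (5 lower in DESeq2; 6 lower and 2 higher at an unadjusted p under 0.05 in edgeR), with a median of -0.72. P4hb, a subunit of collagen prolyl hydroxylase, had a log2 fold change of -0.22 ± 0.28, the collagen chaperone Serpinh1 -0.77 ± 0.31 and the crosslinking oxidase Loxl2 -0.68 ± 0.37. Of 21 tested proteases and inhibitors none passed in edgeR (3 lower in DESeq2; 6 lower and 3 higher at an unadjusted p under 0.05 in edgeR), with a median of -0.58. Timp2, an inhibitor of metalloproteinases, was at -0.01 ± 0.26, and the cathepsins Ctsl and Ctsb were at -1.16 ± 0.39 and -0.20 ± 0.29. The medians of these lists, like that of the 31 genes, lay between the median of all genes tested and that of genes of at least 20 CPM, except for the folding list at -0.72, which was below both.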

How the data were processed

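A single table of unnormalised counts, listed by gene symbol with a column for each library, was deposited by the authors. The tools Trim Galore, STAR and featureCounts and the build GRCm39 are named, per the submitters' processing notes; versions, options and strand setting are not given in the sources used here. Per the labels, RLT plus buffer was used for RNA and a TruePrep kit for the libraries. From the counts, edgeR 4.0.16 (R 4.3.3) tested circulating against muscle over 6 libraries with a robust quasi-likelihood F test, TMM scaling, filterByExpr and Benjamini-Hochberg adjustment at 0.05. The SE is the fold change divided by the square root of F. CPM use TMM-scaled totals that hold the same 18S reads under 2 symbols, a larger share of counts in each circulating than in any muscle library. DESeq2 1.42.0, limma 3.58.1 (voom), other scalings and filters, a replicate block and left-out libraries were alternatives. Exon lengths are unions of GENCODE M21 exons (GRCm38), matched by symbol. Ratios of genes within a library were compared as log2 values by two-sided exact permutation tests. Replicates differed far beyond sampling noise (chi-square per degree of freedom 56.1 to 85.4). The edgeR steps were run on simulated counts whose changed genes rose or fell at random, without a general shift of abundant genes. That run does not test the choice of scaling, and its outcome is not given here. Genes given in full have at least 20 CPM in a group or pass the threshold; from the other lists, those past the threshold or else the 3 most abundant are named. The genes and lists were chosen with earlier results of these data known, and the low genes described were picked with their values in view.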

Additional observations from a re-analysis of the deposited data

How the results depend on the processing

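The number of listed genes past the threshold, 1 lower and 0 higher, was 3 lower with RLE size factors, no filter or limma voom, 2 with TMMwsp, 5 in DESeq2 and 0 with upper quartile scaling, library size without 18S, scaling on abundant genes or the replicate block; without each library in turn it was 0 to 2 (2 without circulating replicate 1, 0 without any other). None was higher in any setting. Over all genes, 21 lower and 1 higher became 42 lower with RLE, 1 lower with upper quartile, 8 lower and 3 higher with library size without 18S, 3 lower and 3 higher with scaling on abundant genes, 154 lower and 6 higher with no filter, 15 higher with at least 10 CPM in 3 samples, 1333 lower and 172 higher in DESeq2, 90 lower and 2 higher with limma voom, and 0 to 63 lower and 0 to 2 higher without a library. With the replicate block, 1 was lower and 0 higher, and Col15a1 had adjusted p = 0.0801 in edgeR at -2.76; same-numbered libraries did not deviate together (r = -0.01, 0.05 and -0.00), so the numbers were not taken as pairs.

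The median of the 31 genes, -0.35, was -0.46 with RLE, -0.40 with TMMwsp, -0.58 with no filter, -0.05 with at least 10 CPM in 3 samples (19 genes left), -0.53 in DESeq2, 0.32 with upper quartile, 0.27 with library size without 18S, 0.41 with scaling on abundant genes and -0.27 to -0.57 without a library. With scaling on abundant genes the signs of Col4a5 (0.00), Lamb1 (0.00) and Nid1 (0.06, or 0.02 with at least 10 CPM) turned. With upper quartile, library size without 18S, scaling on abundant genes and at least 10 CPM, in that order, values turned for Lama4 (0.61, 0.55, 0.69, 0.64), Lamb2 (0.66, 0.56, 0.71, 0.67), Hspg2 (0.28, 0.25, 0.37, 0.31), Pxdn (0.53, 0.38, 0.55, 0.52), Ntn1 (0.32, 0.27, 0.41, 0.35) and Dag1 (0.32, 0.24, 0.38, 0.33). With 1 library left out at a time, Lama4 ran from -0.46 to 0.00, Lamb2 from -0.40 to 0.21, Pxdn from -1.19 to 0.52 and Ntn4 from -0.25 to 0.88; the sign turned without circulating replicate 3 (Lama4, Pxdn at 0.16, Ntn4), circulating replicate 2 (Lamb2) or muscle replicate 3 (Lamb2 at 0.11, Pxdn). The 8 within-library ratios kept their direction without any 1 library, but moved in size: Hspg2 to Agrn (0.99) from 0.14 to 2.26, Col4a1 to Col4a2 (0.31) from 0.05 to 0.48, Lama2 to Lama4 (-0.74) from -1.22 to -0.25 and Nid1 to Nid2 (2.18) from 1.32 to 3.24. The 3106011 counts besides 18S in the smallest circulating library limit the low genes most.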
